A study of Mus musculus with 6 samples.

Results

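The 10 genes described here belong to the cellular response to low oxygen: Egln1, Egln3, Hif1a, Epas1, Vegfa, Bnip3, Car9, Adm, Ankrd37 and Ndrg1. They were taken by name, as every non-control probe whose gene name in the scanner files is one of the 10, which gave 16 of 41174 probes. Pancreatic islets were compared between NZO/HiBomDife mice, the New Zealand Obese strain, written NZO below and prone to diabetes by its label, and leptin-deficient obese mice of the strain C57BL/6.V-Lepob/ob, written B6-ob/ob and resistant by its label. All mice were male, had been fed fat without carbohydrate to 18 weeks of age, and were sampled 48 h after carbohydrate entered the diet. Each strain has 3 samples with 1 one-colour Agilent array each, numbered 10, 11 and 12 in NZO and 4, 5 and 6 in B6-ob/ob. Both strains are obese and had the same diets, and islets from before the diet change were not analysed here. Whether islets of several animals were pooled is not stated, and the p-values therefore reflect only how far these samples spread, which may be technical. In whole islets, fewer cells of a type and less RNA per cell cannot be told apart.

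Cells sense oxygen through prolyl hydroxylases of the Egln family, which use oxygen to mark the alpha subunits of hypoxia-inducible factor (HIF) for destruction by the Vhl ubiquitin ligase. When oxygen is short the alpha subunits, made from Hif1a and Epas1, persist, pair with Arnt and bind a short DNA core at target genes such as Vegfa, Car9, Adm, Ankrd37, Bnip3 and Ndrg1. Egln3 and Egln1 are themselves HIF targets, which closes a feedback loop. In islets the beta cells are the main source of Vegfa, which maintains the dense capillary bed.

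Of 9 tested beta cell markers none was higher and 1 was lower in NZO, Nkx6-1 at a log2 difference of -0.81 (limma adjusted p = 0.0185). Of the others, Ins1 and Ins2, which encode insulin, differed by 0.07 and 0.06, Ucn3 by -1.28 and Slc30a8 by -0.71 (limma adjusted p = 0.780, 0.853, 0.0929 and 0.197). Mafa differed by 0.87, Pdx1 by 0.14, Slc2a2 by -0.06 and G6pc2 by -0.07 (limma adjusted p = 0.285, 0.665, 0.955 and 0.710). Markers of several other cell types of the pancreas did not match between the strains. Of 19 tested acinar markers 17 were higher in NZO, as were 6 of 12 ductal, 13 of 14 stromal, 5 of 15 endothelial and 5 of 10 macrophage markers, and none of these was lower, against 13.2% of all genes higher and 8.92% lower. Of 10 listed lymphocyte markers 4 were tested, and Cd3e and Lck were higher in NZO. The other 2, Cd8b1 and Il7r, like Muc1 and Cftr among the ductal and Pdgfra among the stromal markers, passed the filter on dim probes through NZO alone, so that their calls follow in part from the filter. The mean level of the acinar list, on a log2 scale with the array's 75th percentile at 0, was 5.36, 5.57 and 5.97 in NZO (replicates 10, 11 and 12) and 4.09, 3.37 and 2.58 in B6-ob/ob (replicates 4, 5 and 6). Of 10 genes that rise when tissue is handled, Junb was higher in NZO and no other passed the test, and the means were 5.37 to 5.75 in NZO and 4.26 to 5.78 in B6-ob/ob. Of 8 tested markers of other endocrine cells Ghrl was lower, by the difference -3.01 (limma adjusted p = 0.00262), and no other passed. Of 9 tested proliferation markers 2 were lower and none higher. The proliferation means were -2.03, -2.27 and -2.16 in NZO and 1.17, 0.46 and -2.97 in B6-ob/ob, by replicate number. Neither of 2 tested erythroid markers passed.

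**Figure D1:**
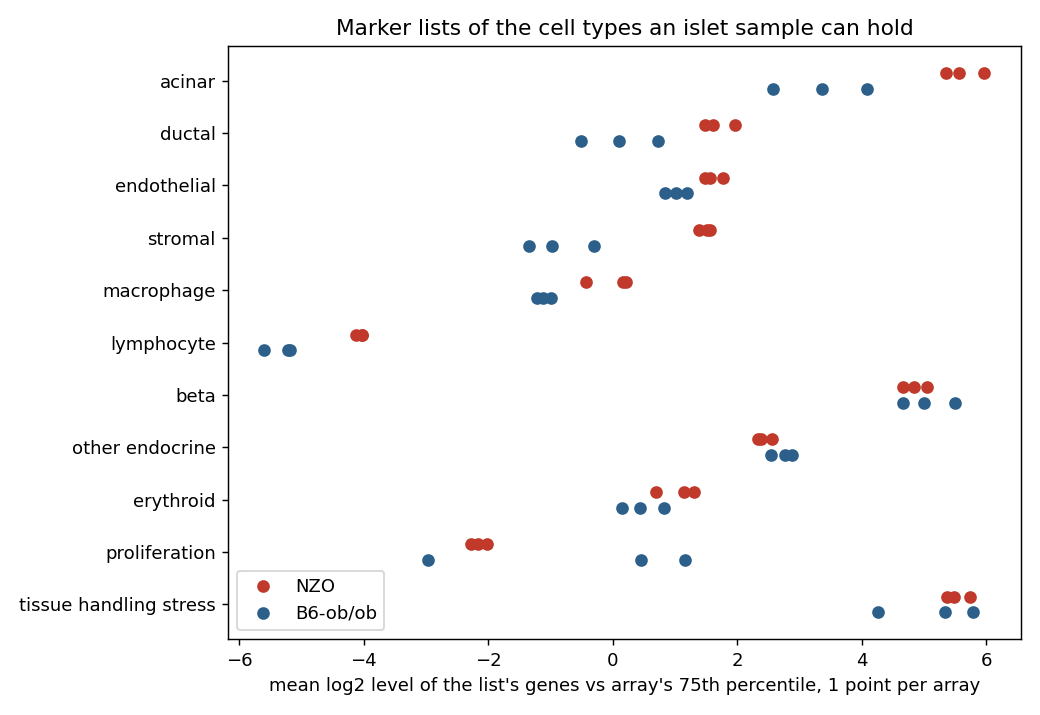
Mean log2 level of each marker list on each array, relative to the array's 75th percentile, with 1 point per array, NZO in red above B6-ob/ob in blue. The acinar, ductal, endothelial, stromal, macrophage and lymphocyte points of the strains do not overlap, while the beta cell points do. The acinar means lie at 5.36 to 5.97 in NZO and 2.58 to 4.09 in B6-ob/ob. The lymphocyte means rest on 4 genes, of which Cd8b1 and Il7r passed the filter on dim probes through NZO alone. The ductal and stromal means also hold such genes, so that these gaps follow in part from the filter.

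The probes that carry the findings are shown here, each a 60-base sequence read from the scanner files with its position on mm9, in lower case throughout. They are the probes of the 4 genes that passed the test, and the other probes of Epas1, which read the gene at different levels.
Egln3 (chr12:55280953-55281012, minus strand): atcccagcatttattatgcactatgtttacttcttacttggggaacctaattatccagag
Epas1 probe 1 (chr17:87232615-87232674, plus strand): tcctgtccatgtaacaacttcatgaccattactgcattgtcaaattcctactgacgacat
Epas1 probe 2 (chr17:87198057-87198116, plus strand): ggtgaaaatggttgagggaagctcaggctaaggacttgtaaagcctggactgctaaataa
Epas1 probe 3 (chr17:87230808-87230867, plus strand): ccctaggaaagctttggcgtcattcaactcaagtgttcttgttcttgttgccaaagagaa
Car9 (chr4:43526023-43526082, plus strand): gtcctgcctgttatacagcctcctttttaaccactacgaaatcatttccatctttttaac
Ankrd37 (chr8:47082404-47082463, minus strand): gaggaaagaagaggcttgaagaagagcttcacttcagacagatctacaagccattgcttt
Which exon or untranslated region each probe covers is not given in the files. Epas1 probe 2 was designed on a cDNA clone of newborn lung and the other probes shown on RefSeq transcripts.

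Of the 10 genes Egln3, Epas1 and Car9 were higher in NZO islets and Ankrd37 was lower, while no probe of Hif1a, Egln1, Vegfa, Bnip3, Adm or Ndrg1 passed the test. Egln3 had by far the greatest difference of the 10, 3.38 on the log2 scale or 10.4-fold. In all, 15 of the 16 probes were tested, each well above background on all 6 arrays. Of these 3 were higher and 1 was lower in NZO at a limma adjusted p under 0.05, against 21.8% of all 24627 tested probes in either direction, 11.5% higher and 10.3% lower. The count of 4 in 15 is near that background, and it was 2 without NZO replicate 10, without NZO replicate 11 or without B6-ob/ob replicate 5. The strains did not overlap at 6 of the 15 probes, which is near the background too, since they did not overlap at 41.0% of all probes and 41.1% of all genes. Read by gene, each through its brightest kept probe, 3 of the 10 were higher and 1 was lower (40%), against 22.1% of all 16383 genes. The median absolute difference was 0.25 over the 15 probes, which count Vegfa 4 times. It was 0.29 over all 16383 genes, which count each gene once, so these medians are not on a like basis. A positive difference means higher in NZO, going by the scanner files' labels. Each column of the authors' deposited value table follows an array labelled with the other strain, so that by its column labels the 4 called probes have the opposite direction. Pearson's r over probes centred on their mean was 0.966 to 0.984 with that array and -0.523 to -0.778 with the array that shares the column's label.

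**Figure D2:**
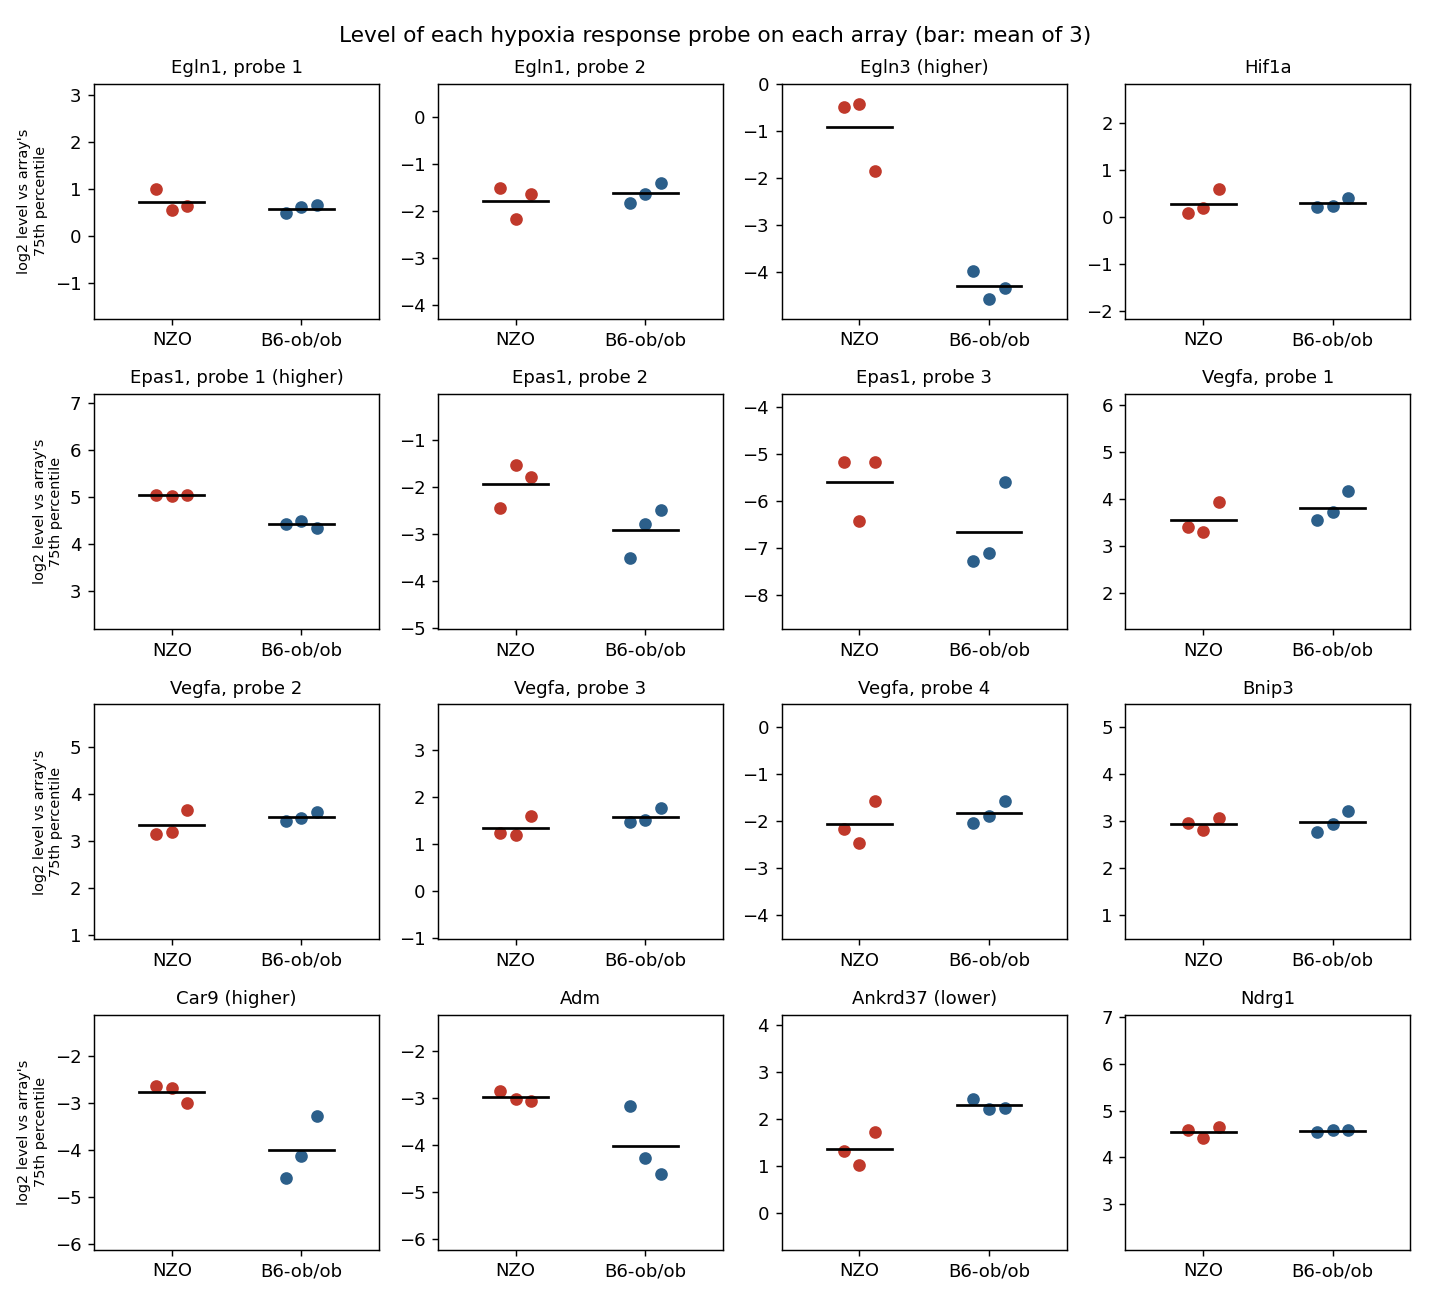
Log2 level of each of the 16 probes relative to the array's 75th percentile, with 1 point per array and a bar at the mean, NZO left of B6-ob/ob in each panel. The Egln3 points lie at -1.84 to -0.41 in NZO and at -4.56 to -3.98 in B6-ob/ob, whereas those of Hif1a, Ndrg1, Bnip3 and Vegfa overlap.

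Egln3 encodes the prolyl hydroxylase PHD3, known for its strong induction by HIF. Its processed intensity was 309, 258 and 114 in the NZO samples and 23.4, 19.2 and 21.7 in the B6-ob/ob samples, both in the order of their replicate numbers. Relative to the 75th percentile these are log2 levels of -0.48, -0.41 and -1.84 in NZO and of -3.98, -4.56 and -4.34 in B6-ob/ob. The lowest NZO array stood 2.14 log2 units above the highest B6-ob/ob array, and NZO replicate 12 was lower than the other two NZO arrays. The means were -0.91 ± 0.81 in NZO and -4.29 ± 0.29 in B6-ob/ob (SD, n = 3 each), which puts NZO higher by 3.38 (SE 0.41, 95% interval 2.40 to 4.36; limma adjusted p = 0.00266). Of all tested probes 1.30% had a fitted difference at least as large, in either direction. The call held in each of 16 alternatives that keep the scanner files, with adjusted p between 0.000177 and 0.0166. Its size fell to 1.73 under normexp background correction, which adds an offset of 50 to every signal, more than the whole signal of this probe in B6-ob/ob. The arrays lay on 3 slides, 2 of which held both strains. NZO replicate 12 was the only array on slide 1, so its lower level and a slide effect cannot be told apart. Within slide 2 NZO replicate 10 stood 3.49 above B6-ob/ob replicate 4, and within slide 3 NZO replicate 11 stood 4.04 above the mean of B6-ob/ob replicates 5 and 6.

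Within the strains, the marker lists did not all move with Egln3. In NZO, Egln3 was lowest on replicate 12. The ductal mean there was 1.48 against 1.62 and 1.96 on NZO replicates 10 and 11. The macrophage mean was -0.43 against 0.16 and 0.21. The lymphocyte mean was also lowest there, at -4.125 against -4.03 and -4.029. It rests on 4 genes of low signal, of which Cd8b1 and Il7r passed the filter through NZO alone. The acinar, stromal and endothelial means were instead highest on NZO replicate 12. In B6-ob/ob, Egln3 was lowest on replicate 5. The ductal means were 0.72, 0.10 and -0.51 on B6-ob/ob replicates 4, 5 and 6, while the macrophage means rose in that order. The part of the marker lists in the Egln3 result was not tested. The 5 named genes whose centred levels over the 6 arrays lay closest to those of Egln3, among 16382 genes, were Atp13a5, Pate14, Anxa8, Tff3 and Scube2. Their root mean square differences from Egln3 were 0.18, 0.18, 0.24, 0.25 and 0.29 log2 units. Atp13a5, Pate14, Anxa8 and Scube2 were well above background on no B6-ob/ob array, and the likeness is a description over 6 arrays that share the strain difference.

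Egln1 encodes PHD2, the main HIF hydroxylase in most cells. On its brighter probe the log2 levels were 1.01, 0.55 and 0.64 in NZO and 0.50, 0.62 and 0.66 in B6-ob/ob, so the strains overlapped. The difference was 0.14 with a 95% interval of -0.23 to 0.51 (limma adjusted p = 0.568). Its other probe differed by -0.15 with an interval of -0.67 to 0.36 (adjusted p = 0.662), and the files list a span of fewer bases for it than its length. Egln2, which encodes the related hydroxylase PHD1, differed by -0.06 (limma adjusted p = 0.832), so Egln3 was the one of the 3 family members that passed the test. That the family members differ in their strain effect was not tested.

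Hif1a and Epas1 encode the oxygen-regulated alpha subunits. Both are controlled mainly at the level of the protein, which these arrays do not measure. Hif1a stood at 0.08, 0.18 and 0.59 in NZO and at 0.20, 0.24 and 0.41 in B6-ob/ob, with means of 0.28 ± 0.27 and 0.28 ± 0.11 (SD, n = 3 each). The difference was -0.0015 with a 95% interval of -0.40 to 0.40 (limma adjusted p = 0.996), so a difference of up to 0.40 in either direction was not excluded.

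Epas1, which encodes the alpha subunit known above all from endothelial cells, was higher in NZO. Its brightest probe stood at 5.06, 5.02 and 5.05 in NZO and at 4.44, 4.50 and 4.34 in B6-ob/ob. The NZO arrays lay close together (SD 0.02, n = 3) and 0.52 or more above every B6-ob/ob array. The difference was 0.62 (SE 0.11), or 1.53-fold (limma adjusted p = 0.00962). Epas1 probe 2 was also above every B6-ob/ob array in NZO, at -2.44, -1.53 and -1.79 against -3.50, -2.79 and -2.48. It differed by 1.00 with a 95% interval of 0.19 to 1.81, and missed the threshold (adjusted p = 0.0844). Epas1 probe 3 stayed near background on all 6 arrays and was not tested. With slide as a fixed block the adjusted p was 0.0625 for probe 1, at a difference of 0.61, and 0.0233 for probe 2, at 1.08. The 15 endothelial markers had means of 1.57, 1.49 and 1.77 in NZO and of 1.19, 1.02 and 0.84 in B6-ob/ob, and 5 of them, Cldn5, Esam, Robo4, Vwf and Sox17, were higher. Their part in the Epas1 result was not tested.

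Of the HIF target genes besides Egln3, Car9 and Ankrd37 passed the test, in opposite directions. Car9, a cell-surface carbonic anhydrase that is a usual marker of hypoxic cells, was higher in NZO. It stood at -2.65, -2.69 and -3.00 in NZO and at -4.60, -4.13 and -3.27 in B6-ob/ob. The SD was 0.19 in NZO and 0.67 in B6-ob/ob (n = 3 each), and NZO replicate 12 lay 0.28 above B6-ob/ob replicate 6. The difference was 1.22 (SE 0.34; limma adjusted p = 0.0473). This call is at the threshold: it held in 7 of 16 alternatives and, of the 6 fits without 1 array, only without B6-ob/ob replicate 6 (adjusted p = 0.00647 at 1.58). The difference was 0.40 under normexp and 1.41 when slide was a fixed block (adjusted p = 0.0663 and 0.0758).

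Ankrd37 encodes a small ankyrin repeat protein and is known as a strongly HIF-responsive gene. It stood at 1.30, 1.01 and 1.72 in NZO and at 2.42, 2.20 and 2.24 in B6-ob/ob. All NZO arrays were lower, by at least 0.48 log2 units between the nearest arrays of the strains. The difference was -0.94 with a standard error of 0.20 and a 95% interval of -1.42 to -0.46 (limma adjusted p = 0.0198). Its call ended without NZO replicate 10 (adjusted p = 0.0665), without NZO replicate 11 (0.0547) and without B6-ob/ob replicate 5 (0.0663), at differences of -0.92, -0.77 and -0.98, and it held in the other 13 of 16 alternatives. Thus Ankrd37 and Egln3, both HIF targets, lay on opposite sides of 0.

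**Figure D3:**
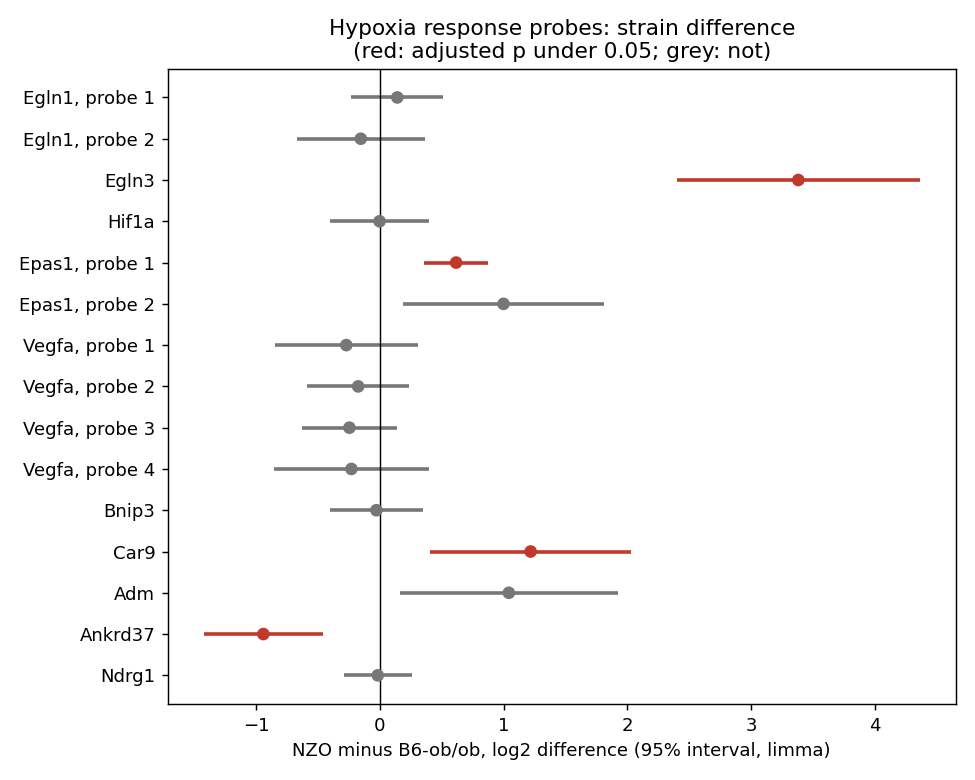
Difference between NZO and B6-ob/ob on the log2 scale at the 15 tested probes, with its 95% interval from limma, not adjusted for the number of probes, in red where the adjusted p was under 0.05. Egln3 at 3.38, Car9 at 1.22 and probe 1 of Epas1 at 0.62 lie right of 0, Ankrd37 at -0.94 lies left of it, and the 4 Vegfa probes lie between -0.27 and -0.17.

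Vegfa, the main growth factor for islet capillaries, is read by 4 probes, of which 1 is spotted 10 times on each array. Their differences were -0.27, -0.17, -0.25 and -0.23, and none passed the test (limma adjusted p = 0.477, 0.526, 0.331 and 0.583). On the probe spotted 10 times the levels were 3.14, 3.18 and 3.66 in NZO and 3.42, 3.48 and 3.61 in B6-ob/ob, and the 95% interval of the difference was -0.59 to 0.24. In each strain the highest level at all 4 probes was that of 1 array, NZO replicate 12 and B6-ob/ob replicate 6. These probes share the gene and are not independent measurements.

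Adm encodes adrenomedullin, a vasodilator peptide. Its levels were -2.85, -3.03 and -3.08 in NZO and -3.18, -4.29 and -4.62 in B6-ob/ob. The strains did not overlap, by 0.10 log2 units, and the 3 NZO arrays lay close together while those of B6-ob/ob spread. The difference of 1.04 with a 95% interval of 0.16 to 1.93 missed the threshold (limma adjusted p = 0.0938). It passed in only 2 of 16 alternatives: without B6-ob/ob replicate 4, at 1.47 (adjusted p = 0.00321), and with array weights, at 1.27 (adjusted p = 0.00529). Over the 16 the difference lay between 0.33 and 1.47, with limma adjusted p up to 0.258. The stromal means fell in the same order as Adm over B6-ob/ob replicates 4, 5 and 6, at -0.30, -0.98 and -1.35. So did the acinar, ductal and endothelial means, while the macrophage means rose. In NZO the stromal means were 1.52, 1.39 and 1.57, highest on replicate 12, where Adm was lowest in that strain. Over the B6-ob/ob arrays the stromal, acinar, ductal and endothelial lists follow one another. Over the NZO arrays they do not all do so, since the ductal mean was lowest on replicate 12. The part of the marker lists in the Adm values was not tested.

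Bnip3, a mitochondrial protein that promotes mitophagy in hypoxic cells, stood at 2.95, 2.82 and 3.06 in NZO and at 2.76, 2.95 and 3.21 in B6-ob/ob. Ndrg1, a stress-responsive gene repressed by Myc proteins and induced by hypoxia, stood at 4.58, 4.42 and 4.65 in NZO and at 4.54, 4.59 and 4.58 in B6-ob/ob. Both overlapped between the strains. Bnip3 differed by -0.03 with a 95% interval of -0.40 to 0.35, and Ndrg1 by -0.02 with an interval of -0.29 to 0.26 (limma adjusted p = 0.923 and 0.938).

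The promoters of Egln3, Car9, Ankrd37 and Bnip3 are shown because these HIF targets had different strain effects, up in NZO for the first and second of them, down for Ankrd37 and not called for Bnip3. Each window runs from 250 bases before to 50 bases after the gene's start, 5′ to 3′ on the gene's strand, from RefSeq on GRCm38.p6. Capitals mark the HIF core ACGTG or GCGTG on either strand, which reads CACGT or CACGC on the other strand, and matches may overlap, as in CACGTG.
Egln3 (chr12:54203825-54204124, minus strand): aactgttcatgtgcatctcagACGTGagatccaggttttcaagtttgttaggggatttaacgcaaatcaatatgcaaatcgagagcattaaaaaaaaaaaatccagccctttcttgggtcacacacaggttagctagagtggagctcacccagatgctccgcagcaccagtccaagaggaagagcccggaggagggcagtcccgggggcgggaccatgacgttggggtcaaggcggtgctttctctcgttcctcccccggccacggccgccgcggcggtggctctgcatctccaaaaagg
Car9 (chr4:43506776-43507075, plus strand): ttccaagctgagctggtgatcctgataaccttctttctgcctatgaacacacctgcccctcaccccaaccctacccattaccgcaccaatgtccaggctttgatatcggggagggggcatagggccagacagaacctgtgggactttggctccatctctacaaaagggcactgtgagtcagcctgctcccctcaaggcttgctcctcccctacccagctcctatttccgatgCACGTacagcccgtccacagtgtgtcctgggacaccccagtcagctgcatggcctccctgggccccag
Ankrd37 (chr8:45999801-46000100, minus strand): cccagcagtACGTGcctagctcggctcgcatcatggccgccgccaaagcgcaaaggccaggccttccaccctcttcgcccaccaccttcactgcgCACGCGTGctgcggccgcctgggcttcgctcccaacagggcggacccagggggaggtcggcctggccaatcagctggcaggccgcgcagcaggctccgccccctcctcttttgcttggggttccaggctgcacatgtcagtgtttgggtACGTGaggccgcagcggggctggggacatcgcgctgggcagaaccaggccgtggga
Bnip3 (chr7:138909457-138909756, minus strand): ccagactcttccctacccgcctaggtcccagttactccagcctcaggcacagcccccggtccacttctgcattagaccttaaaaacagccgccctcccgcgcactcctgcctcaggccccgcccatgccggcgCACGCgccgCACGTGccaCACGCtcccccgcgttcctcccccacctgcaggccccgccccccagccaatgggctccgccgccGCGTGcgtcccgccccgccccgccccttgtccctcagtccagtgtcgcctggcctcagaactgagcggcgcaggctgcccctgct
The core occurs 1 time in the windows of Egln3 and of Car9, 4 times in that of Ankrd37 and 5 times in that of Bnip3. Of all 32851 RefSeq promoter windows, 43.8% hold at least 1 match and 8.93% hold at least 3. The table holds 9 windows of 8 of the 10 genes, and 8 of the 9 windows have a match. Epas1 and Ndrg1 have no window in the table. A match is a run of letters and not a measured binding site.

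Few genes that control HIF passed the test. Of 22 tested genes none was higher and 2 (9.09%) were lower in NZO, at a median difference of -0.07, against 22.1% of all 16383 genes called in either direction and a median of -0.03. Arnt2, a partner of the alpha subunits known mainly from neurons, was at -3.35 ± 0.07 in NZO and -2.11 ± 0.11 in B6-ob/ob (SD, n = 3 each), a difference of -1.24 (limma adjusted p = 0.00112), and of -0.71 under normexp. Siah1b, a ubiquitin ligase of the family that degrades Egln proteins, was lower by the difference -0.54 (adjusted p = 0.0202), but on its other kept probe it differed by -0.15 (adjusted p = 0.457). Vhl, which recognises the hydroxylated alpha subunits, differed by -0.14, Arnt by -0.06 and Hif1an, the asparagine hydroxylase that blocks HIF activity, by -0.11 (limma adjusted p = 0.525, 0.845 and 0.522). The 3 kept probes of Hif1an disagreed, with the other 2 at 0.34 and -0.73 (adjusted p = 0.0741 and 0.0553).

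Other targets of HIF were called about as often as genes in general. Of 50 listed genes 46 were tested, of which 10 were higher and 2 lower in NZO, or 26.1% against 22.1% of all genes (13.2% higher and 8.92% lower), at a median of 0.16. Pfkfb3, which makes the activator of phosphofructokinase, was higher by 2.41, at 2.77 ± 0.37 in NZO and 0.35 ± 0.63 in B6-ob/ob (SD, n = 3 each; limma adjusted p = 0.00523). Its 2 other kept probes were well above background on 0 and 1 of the 3 B6-ob/ob arrays and add no measured difference. The selenium-binding protein gene Selenbp1 was higher by 2.34 (adjusted p = 0.0003), the lipoprotein lipase inhibitor gene Angptl4 by 2.11 (0.00701) and the clock-linked repressor gene Bhlhe40 by 1.69 (0.00212). In the other direction, Ppp1r3c, a glycogen-targeting phosphatase subunit, was lower by the difference -1.61 (limma adjusted p = 0.00743), and so was the lipoprotein receptor gene Vldlr at -0.58 (adjusted p = 0.045), whose other probe missed the threshold at -0.56 (adjusted p = 0.0833). The Vldlr call held in 6 of 16 alternatives and in 0 of the 6 fits without 1 array. Stc2, a secreted glycoprotein gene named after its values were seen, stood at 0.82, 0.83 and 0.96 in NZO and at -4.16, -4.99 and -6.00 in B6-ob/ob, where 1 of 3 arrays measured it above background. Bnip3l, the relative of Bnip3, differed by 0.41 and P4ha1, a collagen prolyl hydroxylase, by -0.36 (limma adjusted p = 0.104 and 0.203). Epo, Nos2, Ak4 and Car12 stayed near background on all 6 arrays.

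Genes of glycolysis that HIF controls were called in 5 of 17 cases (29.4%). Of all genes 22.1% were called in either direction and 13.2% were higher in NZO. All 5 were higher in NZO, and the list's median was 0.22, while under normexp 4 were higher and 1 was lower. Hexokinase 2 (Hk2) was higher by 1.06 (limma adjusted p = 0.00485), lactate dehydrogenase A (Ldha) by 1.04 (0.0188), glucose phosphate isomerase (Gpi1) by 0.85 (0.0386) and the lactate exporter gene Slc16a3 by 0.84 (0.0304). Under normexp Hk2 differed by 0.30 and lost its call (adjusted p = 0.0639), and the calls of Gpi1 and Slc16a3 held in 10 and 9 of 16 alternatives. Ldha and Slc16a3 are known to be kept low in beta cells. The glucose transporter gene Slc2a1 differed by 0.25, phosphoglycerate kinase (Pgk1) by -0.35 and Pdk1, which shuts pyruvate out of mitochondria, by -0.57 (adjusted p = 0.243, 0.458 and 0.267). The number higher fell to 1 without B6-ob/ob replicate 5, NZO replicate 10 or NZO replicate 11, to 3 without NZO replicate 12, without B6-ob/ob replicate 6 or with slide as a fixed block, and to 2 with no filter on dim probes.

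Of 17 tested ligands and receptors that work with Vegfa and Adm, 5 (29.4%) were higher and none was lower in NZO, at a median of 0.25, against 13.2% of all genes higher and 22.1% called in either direction. Vegfd, a ligand of lymphatic growth, was higher by 1.93 (limma adjusted p = 0.00878), and by 0.82 under normexp. The co-receptors Nrp1 and Nrp2 were higher by 0.95 and 0.83 (adjusted p = 0.0499 and 0.0186), and the other kept probe of Nrp1 missed the threshold at 0.74 (adjusted p = 0.167). The Nrp1 call held in 9 of 16 alternatives. For adrenomedullin, its receptor gene Calcrl was higher by 0.77 and the receptor's partner gene Ramp2 by 0.83 (adjusted p = 0.0176 and 0.0189). The Vegfa receptors Flt1 and Kdr did not pass the test, with Flt1 at 0.30 and Kdr at 0.12 (limma adjusted p = 0.189 and 0.74). Both receptors also stand among the 15 endothelial markers. With slide as a fixed block, without NZO replicate 10 and without B6-ob/ob replicate 5 the number higher was 1, without NZO replicate 11 it was 2, and without NZO replicate 12 it was 3. The part of the endothelial and stromal markers, which were higher in NZO, in these counts was not tested.

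Among 19 tested members of the NDRG, BNIP and carbonic anhydrase families 4 (21.1%) were higher and none was lower, at a median of -0.08. Of all genes 22.1% were called in either direction and 13.2% were higher in NZO. Ndrg2, a relative of Ndrg1, was higher by 1.94 (limma adjusted p = 0.000466), and the carbonic anhydrase genes Car11 and Car8 by 2.17 and 1.30 (adjusted p = 0.00104 and 0.00231). Under normexp Car11 was higher by 0.81. Car2, the fourth, is also 1 of the ductal markers and 2 of 3 B6-ob/ob arrays measured it above background. Among 9 tested genes of collagen and HIF hydroxylase relatives only P3h2, a collagen prolyl hydroxylase, passed the test, lower by the difference -0.78 (limma adjusted p = 0.0292), which is 11.1% of the list. The P3h2 call held in 9 of 16 alternatives and in 1 of the 6 fits without 1 array.

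**Figure D4:**
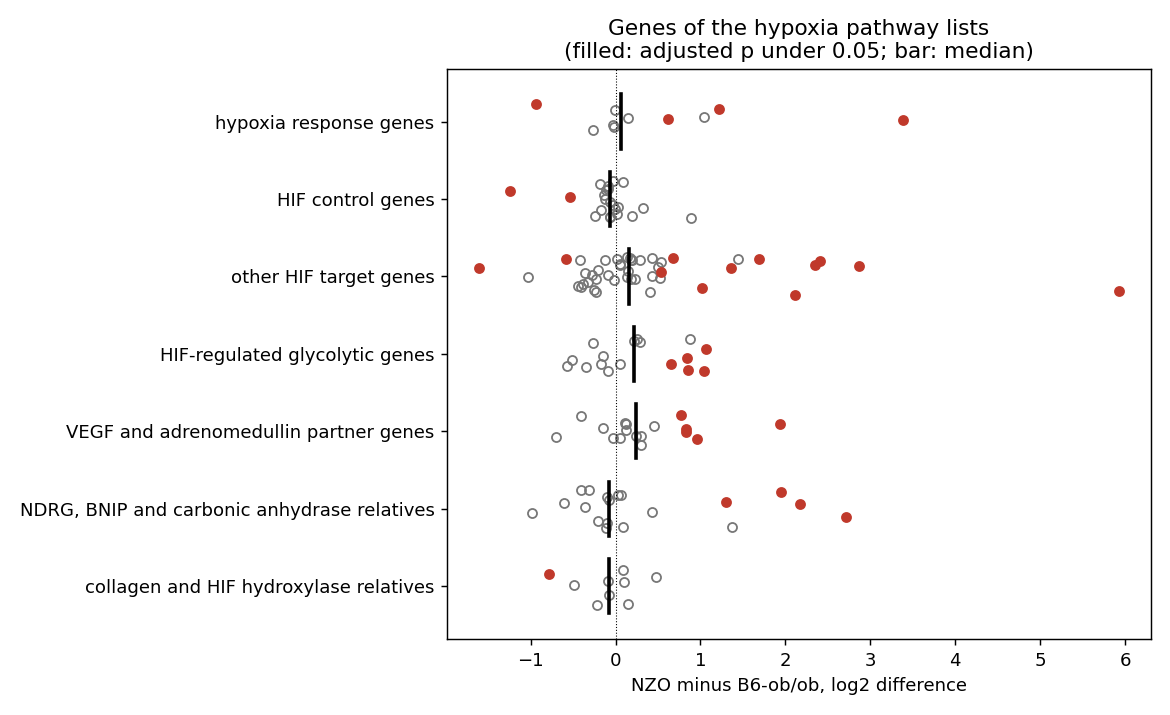
Difference between NZO and B6-ob/ob on the log2 scale for every tested gene of the 10 and of each related list, filled where the limma adjusted p was under 0.05, with a bar at the list's median. The medians lie between -0.08 and 0.25, and the point at 5.92 among the other HIF target genes is Stc2, which 1 of 3 B6-ob/ob arrays measured above background.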

How the data were processed

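The intensities were deposited as scanner files, 1 per array, made with Agilent Feature Extraction 10.5.1.1 on array design 014868 per the file headers (version 9.1 per the submitters' processing notes). Per the labels, total RNA was labelled with Cy3. The deposited processed intensity is background-subtracted and detrended within the array per the file headers, and is not scaled between arrays. The flags of the software (other deposited columns) mark outliers, saturation and spots well above background. Between 23617 and 24710 of 41174 non-control probes were well above background per array, 61 to 76 outlier spots an array were left out, and no spot was saturated. The number of arrays limits the precision.

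Processed intensities were put on the log2 scale, spots of the same probe were averaged, and the 75th percentile of the array was subtracted. Kept were 24627 probes that 3 or more of the 6 arrays measured well above background. Strains were compared with limma 3.58.1 (lmFit, then eBayes; R 4.3.3), with two-sided p-values adjusted by Benjamini and Hochberg's method across the kept probes and called under 0.05. Lists were read through each gene's brightest kept probe. Names came from the files, with 25097 probes named through accessions and 7973 through symbols of the RefSeq gene table. The functions were tested on simulated data.

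The members and lists were chosen with earlier results of these data known. The rule names all 10 members, the called genes of each list, at most 4 in each direction and well above background on all 6 arrays, 14 genes whatever their value, and the 5 genes most like Egln3, leaving out clones. Stc2, Car2 and the marker genes named were added after their values were seen. The authors' deposited value table holds intensities on a linear scale, with a step of normalisation not given in the sources used here. Alternatives covered background, normalisation, filter, unit of the test, slide, the spread, that table and each array left out.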

Additional observations from a re-analysis of the deposited data

How the results depend on the processing

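No paired analysis was possible because the strains share no replicate numbers. Egln3 and Arnt2 kept their calls in all 16 alternatives that use the scanner files. So did Pfkfb3, Selenbp1, Angptl4, Bhlhe40, Ppp1r3c, Vegfd, Car11, Ndrg2 and Car8. The number of called glycolytic genes was 2 with no filter on dim probes, and with slide as a fixed block the numbers were 1 for HIF control, 3 for glycolytic and 1 for VEGF and adrenomedullin partner genes. With array weights 23 other HIF targets, 8 glycolytic genes and 10429 of all probes were called. Leaving out 1 array gave 2 to 4 called member probes, 1 to 2 HIF control genes, 8 to 13 other targets, 1 to 4 glycolytic genes, 1 to 6 partner genes and 2810 to 5101 of all probes. The cause was not tested.

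Some genes without a call changed sign. Hif1a was at 0.038 under normexp and 0.018 under quantile normalisation, Ndrg1 at 0.0063 under normexp, Egln2 at 0.053 with slide as a fixed block and Kdr at -0.0023 with array weights. Without 1 array at a time, Hif1a lay between -0.15 and 0.099, Egln1 between -0.29 and 0.044, Bnip3 between -0.13 and 0.092, Ndrg1 between -0.067 and 0.047, Arnt between -0.22 and 0.053, Egln2 between -0.23 and 0.075 and Kdr between -0.081 and 0.27, with Egln1 read by its dimmer probe.

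In the authors' deposited value table, read by its column labels, 1 HIF control gene was called. The uncalled dimmer Egln1 probe, Hif1a and Hif1an kept their sign there, at -0.11, -0.018 and -0.16. The differences of opposite sign, by column label, were -3.34 for Egln3, -0.62 for Epas1, -0.97 for Epas1, 0.24 for Vegfa, 0.23 for Vegfa, 0.042 for Bnip3, -1.18 for Car9, -0.98 for Adm, 0.93 for Ankrd37, 0.026 for Ndrg1, 1.29 for Arnt2, 0.40 for Siah1b, -2.36 for Selenbp1, -2.12 for Angptl4, -1.69 for Bhlhe40, 0.56 for Vldlr, -1.003 for Hk2, -0.84 for Gpi1, -0.84 for Slc16a3, -1.88 for Vegfd, -0.85 for Nrp1, -0.86 for Nrp2, -0.83 for Ramp2, -2.13 for Car11, -1.94 for Ndrg2, -1.28 for Car8, 0.78 for P3h2, 0.075 for Egln2, 0.12 for Vhl, 0.023 for Arnt, -0.15 for Kdr, -0.78 for Calcrl, -0.37 for Bnip3l, -0.27 for Slc2a1, 0.56 for Pdk1. Under normexp the differences were 1.73 for Egln3, 0.40 for Car9, 0.30 for Hk2, 0.82 for Vegfd, 0.81 for Car11, 0.63 for Nrp1 and -0.71 for Arnt2, and Car9, Hk2 and Vldlr lost their calls.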
